A study of Mus musculus with 29 samples.

Results

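Coenzyme Q, also called ubiquinone, is the lipid that carries electrons within the inner mitochondrial membrane. It takes them from complexes I and II and from several dehydrogenases and hands them to complex III, and the beating heart, which lives on mitochondrial respiration, holds much of it. Cells make it from a ring derived from tyrosine and a long isoprenoid tail: one enzyme pair builds the tail, a transferase joins tail and ring, and a membrane complex of hydroxylases, methyltransferases and partner proteins then finishes the ring. The 10 genes of this pathway described here were taken by symbol: *Pdss1*, *Pdss2*, *Coq2*, *Coq6*, *Coq3*, *Coq5*, *Coq7*, *Coq4*, *Coq9* and *Adck3*. All 10 were among the 29955 genes of the deposited mouse table, and all 10 passed a minimum mean of 0.5 FPKM (fragments per kilobase of transcript, scaled to the fragments mapped in a library), which left 12759 genes to test.

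The study followed hearts into failure and back. C57BL6 mice aged 3 months drank water with 0.3 mg/ml L-NAME, an inhibitor of nitric oxide synthesis, and 1% NaCl for 5 weeks, and after the first week an osmotic pump delivered 0.7 mg/kg/day of angiotensin II, a hormone that raises blood pressure. Normal water and the end of the 28 day pump then began the recovery, and RNA was sequenced from ventricles labelled as whole, which according to the methods were the apical parts. Libraries were used from HF week 3 (2) and HF week 5 (3), during treatment, from Recovery weeks 7 (2), 9 (2), 11 (3), 13 (2) and 19 (5), and from Control week 19 (5). Recovery mice had the full 5 weeks of L-NAME, NaCl and angiotensin II before they were left untreated, for 2, 4, 6, 8 or 14 weeks by the labels, and the control mice had none of these agents. Control week 19 is the baseline throughout, so HF week 5 hearts were 14 weeks younger than their controls. Age and treatment cannot be told apart in HF against control. Recovery week 19 hearts were likewise 14 weeks older than those of HF week 5, so age and the end of treatment cannot be told apart there. HF week 3 and Recovery weeks 7 to 13 were also younger than the controls. The 5 columns named for week 5 controls would match HF week 5 in age, but only 4 such samples are labelled and the columns were not used. The labels name no animal or culture for a library, so p-values measure only the spread between these libraries, which may be technical in part.

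Libraries differed in ways that bear on what follows. Relative depth, read from the steps between low FPKM values, ran from 0.728 to 1.4 over 23 libraries, and the depth in fragments is not known. No steps were found in HF week 3 library 1, where 12816 genes were above 0; the others had 16339 to 18091. *Myh6*, the main myosin heavy chain of the adult mouse heart, was listed at 0 in all 13 libraries of weeks 5 and 19 and at high values in all 11 of the other weeks, while the other 9 cardiomyocyte markers were above 0 in every library. The 10 highest genes took 14.6% to 18.8% of all FPKM at weeks 5 and 19 and 27.9% to 37.4% in Recovery weeks 7 to 13, and in HF week 3 they took 19.8% in library 1 and 37.5% in library 2, so comparisons of these weeks with weeks 5 and 19, those of HF week 3 included, carry that difference. HF week 5 library 1 stood apart from its group: its 4 atrial cardiomyocyte markers (*Myl7*, *Myl4*, *Sln*, *Nppa*) summed to 81700 FPKM, against 2510 and 2230 in libraries 2 and 3 and 89.6 to 349 in the controls. HF results are therefore also given without that library where a count or call moved with it. Library 2 also stood above the controls. Without *Nppa* the atrial sums were 39700, 415 and 15.5 FPKM in HF week 5 libraries 1 to 3 and 4.83 to 8.52 in the controls. *Cfd*, an adipocyte marker, read 214, 189 and 1.28 FPKM in libraries 1 to 3 and 0.0792 to 0.167 in the controls. Fits without library 1 thus still hold raised atrial and adipocyte markers.

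The 250 bases before the start of a gene are shown for *Pdss2* and *Coq9*, which had the deepest falls in HF week 5, and for *Coq7* and *Coq4*, which did not pass the test there, so that the regulatory sequence of both kinds of member can be read. They come from RefSeq on build GRCm38.p6, which is not the build of the deposited values, and each is written 5′ to 3′ on its gene's strand: *Pdss2* at chr10:43221236-43221485 (plus), *Coq9* at chr8:94838163-94838412 (plus), *Coq7* at chr7:118533357-118533606 (minus) and *Coq4* at chr2:29787243-29787492 (plus). Capitals mark the motif matches given in the next paragraph.
Pdss2: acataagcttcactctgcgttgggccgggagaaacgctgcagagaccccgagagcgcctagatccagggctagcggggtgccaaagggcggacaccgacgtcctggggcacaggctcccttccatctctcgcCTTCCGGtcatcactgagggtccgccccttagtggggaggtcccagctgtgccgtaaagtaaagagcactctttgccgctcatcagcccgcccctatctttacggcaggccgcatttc
Coq9: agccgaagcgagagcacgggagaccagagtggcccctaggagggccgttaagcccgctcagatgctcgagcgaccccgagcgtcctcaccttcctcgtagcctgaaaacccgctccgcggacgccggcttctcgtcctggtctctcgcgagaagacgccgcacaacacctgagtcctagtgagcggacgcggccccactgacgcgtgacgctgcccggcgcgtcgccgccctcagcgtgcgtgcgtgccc
Coq7: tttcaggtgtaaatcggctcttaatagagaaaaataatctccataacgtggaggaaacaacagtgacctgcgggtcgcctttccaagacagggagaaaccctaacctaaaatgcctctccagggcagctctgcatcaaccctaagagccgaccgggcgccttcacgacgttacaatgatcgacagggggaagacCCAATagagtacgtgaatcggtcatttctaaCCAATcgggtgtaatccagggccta
Coq4: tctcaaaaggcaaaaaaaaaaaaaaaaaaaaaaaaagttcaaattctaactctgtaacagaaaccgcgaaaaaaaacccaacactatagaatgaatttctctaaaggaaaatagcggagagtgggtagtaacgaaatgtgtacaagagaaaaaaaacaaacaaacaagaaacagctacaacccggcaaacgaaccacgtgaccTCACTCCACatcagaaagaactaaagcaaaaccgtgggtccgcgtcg

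RefSeq promoter entries matched 9 of the 10 members, with *Adck3* under its newer symbol *Coq8a* and without *Coq5*. Motifs were searched as plain letters on both strands of these 250 bases and, for comparison, of all 32851 promoter windows in the table. CCAAT, the NF-Y motif, was in the windows of *Coq6*, *Coq7* and *Adck3* and in 33.8% of all windows. In *Coq7* it stood 2 times, from 56 to 52 and from 25 to 21 bases before the start. CCGGAAG, an ETS motif, was in *Pdss2* alone among the members, on the minus strand from 118 to 112 bases before the start (capitals CTTCCGG), and in 6.91% of all windows. TCACNCCAC, a motif of the sterol regulator SREBP, was in *Coq4* from 47 to 39 bases before the start and in 1.05% of all windows. GCGCATGCG or GCGCACGCG, motifs of NRF1, were in 2.78% of all windows and, as GCGCACGCG, in *Adck3*, where the 9 bases overlap no other motif searched. No member's window held the ERR motif TCAAGGTCA (0.387% of all windows), its looser form TNAAGGTCA (1.14%) or the YY1 motif AAGATGGCG (0.606%). *Coq9* held none of the motifs searched.

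In control hearts the 10 genes spanned a wide range of levels, which FPKM allows to be compared between genes because it is per length. *Coq9* had the highest mean, 333 ± 41.0 FPKM (SD, n = 5), followed by *Coq7* at 187 ± 16.3, *Adck3* at 160 ± 13.8, *Coq2* at 79.0 ± 5.87, *Coq5* at 59.2 ± 6.46, *Coq6* at 45.9 ± 2.66, *Coq3* at 16.4 ± 0.811, *Coq4* at 9.85 ± 0.759, *Pdss2* at 7.21 ± 1.54 and *Pdss1* at 5.36 ± 0.5. Each gene was higher than the next in 5 of 5 libraries, and between libraries the ranges overlapped for *Coq5* and *Coq6* and for *Pdss2* and *Pdss1*. The tail synthase genes were thus the lowest of the pathway. In HF week 5 the order changed: *Coq7* (177 FPKM) stood above *Coq9* (154) and *Pdss1* (2.57) above *Pdss2* (2.46), though in both pairs the HF ranges overlapped.

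The first comparison asks how the pathway stood at the end of the heart failure protocol. Against Control week 19, 8 of the 10 genes fell in HF week 5 and none rose (limma on log2(FPKM + 0.5), Benjamini-Hochberg adjusted p under 0.05 over all genes tested). Of all genes tested 12.4% were called lower. The median log2 fold change of the members was -0.64, beside 0.04 over all genes. Every HF library was below every control library for 7 members, the exceptions being *Adck3*, *Coq4* and *Coq7*, and 14.7% of all genes tested were separated in this way. In bulk tissue, fewer cells of a type and less RNA per cell cannot be told apart. The FPKM of the 10 genes summed to 394, 724 and 646 in HF week 5 libraries 1 to 3 and to 932, 908, 919, 946 and 807 in control libraries 1 to 5.

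**Figure D1:**
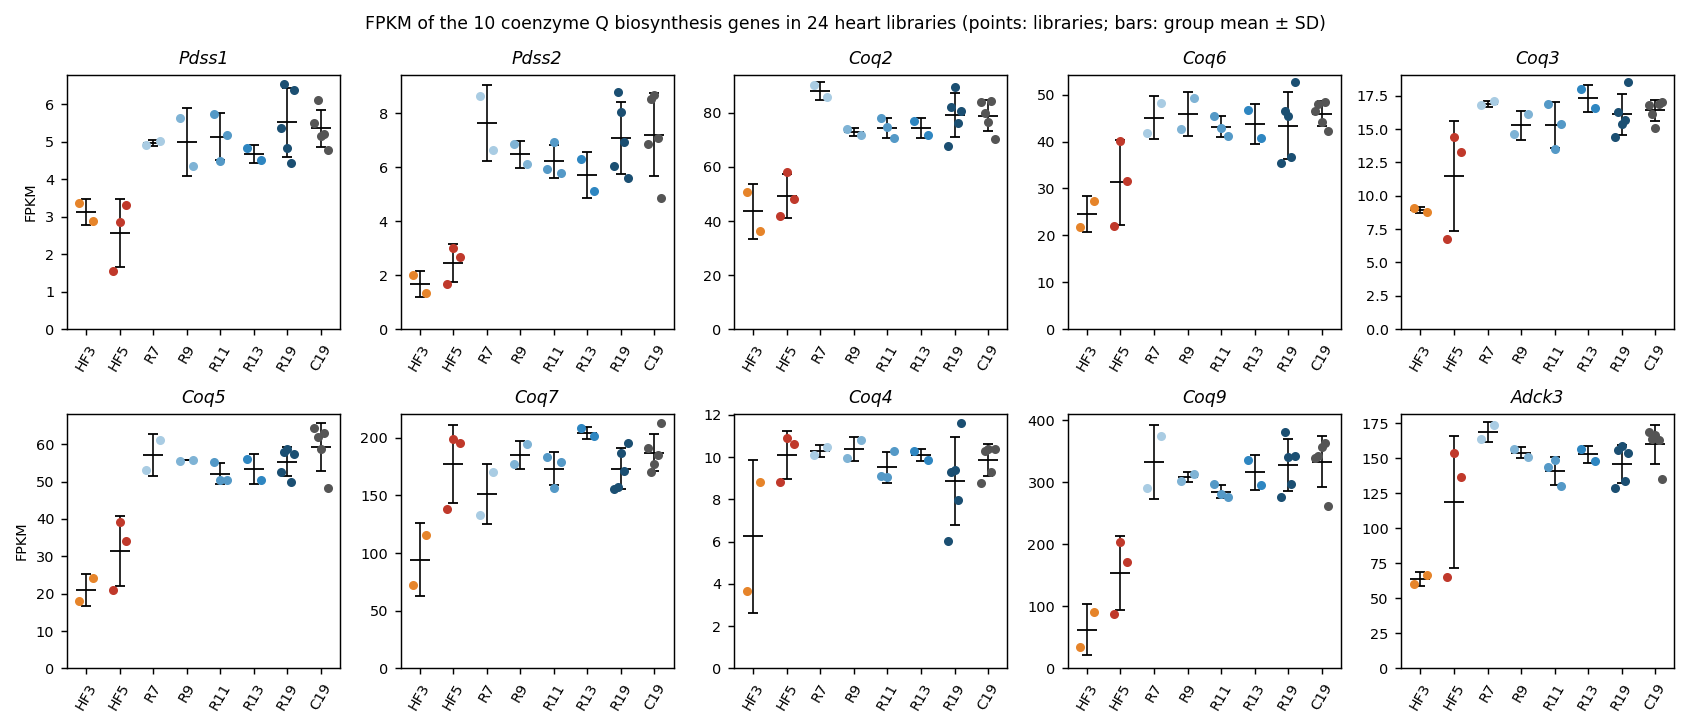
FPKM of each of the 10 genes (one panel per gene, vertical axis from 0) in the 24 libraries, by group: HF3 and HF5 are heart failure weeks 3 and 5, R7 to R19 the Recovery weeks and C19 Control week 19; points are libraries, bars the group mean ± SD. For *Pdss2* the 3 HF week 5 points lie between 1.67 and 3.02 and the controls between 4.88 and 8.69, whereas for *Coq4* both groups lie between 8.77 and 10.9.

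Both subunits of the tail synthase fell. *Pdss1*, a subunit of the prenyl diphosphate synthase that builds the isoprenoid tail, read 1.55, 2.86 and 3.31 FPKM in HF week 5 libraries 1 to 3 and 5.5, 6.12, 5.17, 5.21 and 4.78 in the controls. No HF library reached a control library, and the mean of 2.57 ± 0.913 (SD, n = 3) was 48.0% of the control mean. The log2 fold change was -0.98 (SE 0.166, adjusted p = 0.000527). *Pdss2*, its partner subunit, read 1.67, 3.02 and 2.69 FPKM in HF and 6.87, 8.55, 8.69, 7.08 and 4.88 in control. Its HF mean of 2.46 ± 0.703 (SD, n = 3) was 34.1% of control, the lowest share of any member, and the log2 fold change was -1.39 (SE 0.191, adjusted p = 0.000107). Without HF library 1 the log2 fold changes were -0.71 for *Pdss1* and -1.18 for *Pdss2*, and both remained called.

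*Coq2*, the transferase that joins the tail to the ring, read 41.7, 58.1 and 48.0 FPKM in HF week 5 and 83.9, 80.0, 76.6, 84.4 and 70.2 in control. All HF libraries were below all controls, by less than for the tail synthase: the HF mean of 49.3 ± 8.27 (SD, n = 3) was 62.3% of control. Its log2 fold change was -0.69 (SE 0.12, adjusted p = 0.00065), and -0.57 without HF library 1, still called.

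The 4 ring-modifying enzymes did not move alike. *Coq5*, the C-methyltransferase, read 21.0, 39.1 and 34.2 FPKM in HF and 64.2, 62.0, 58.7, 63.1 and 48.3 in control, a fall to 53.1% of the control mean in which no libraries overlapped. Its log2 fold change was -0.94 (SE 0.152, adjusted p = 0.000343), and -0.68 without HF library 1. *Coq6*, a ring hydroxylase, read 22.1, 40.1 and 31.5 FPKM in HF and 46.5, 48.0, 44.1, 48.5 and 42.2 in control. The highest HF value lay just under the lowest control value, and the log2 fold change was -0.58 (SE 0.155, adjusted p = 0.0106). *Coq3*, the O-methyltransferase, read 6.78, 14.4 and 13.3 FPKM in HF and 16.8, 16.1, 15.1, 16.9 and 17.0 in control. HF library 1 was well under the other two, which came close to the controls, and the log2 fold change was -0.56 (SE 0.161, adjusted p = 0.0165). Without that library neither *Coq6* (-0.36, adjusted p = 0.121) nor *Coq3* (-0.23, adjusted p = 0.166) was called.

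*Coq7*, the hydroxylase of the step before last, was the ring enzyme that did not pass the test. It read 138, 199 and 195 FPKM in HF and 191, 170, 177, 185 and 213 in control, so that HF libraries 2 and 3 lay inside the control range and library 1 below it. The log2 fold change was -0.10 with a 95% confidence interval of -0.41 to 0.22 (adjusted p = 0.682), and it was 0.08 without HF library 1. A fall of the size seen for *Coq5* lies outside that interval.

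Among the partner proteins *Coq9*, a lipid-binding protein that works together with the Coq7 enzyme, had the deepest fall. It read 87.4, 203 and 171 FPKM in HF and 339, 342, 357, 363 and 261 in control. The lowest control library was above the highest HF library, and the HF mean of 154 ± 59.6 (SD, n = 3) was 46.2% of control. The log2 fold change was -1.19 (SE 0.253, adjusted p = 0.00267), and -0.83 without HF library 1, still called. *Adck3*, an atypical kinase that supports the biosynthetic complex and is now named *Coq8a*, read 65.1, 154 and 137 FPKM in HF and 169, 164, 167, 163 and 135 in control. Its groups overlapped and its call was the weakest of the 8: the log2 fold change of -0.52 (SE 0.184) had an adjusted p of 0.0479, and without HF library 1 it was -0.13 with an adjusted p of 0.501. The call was also lost without any one of control libraries 1 to 4 (adjusted p of 0.0815 to 0.0880). *Coq4*, needed to hold the complex together, read 8.81, 10.9 and 10.6 FPKM in HF and 8.77, 10.3, 10.4, 9.32 and 10.4 in control. The HF values lay within or just above the control range, and the log2 fold change was 0.03 (95% confidence interval -0.37 to 0.44, adjusted p = 0.919), with -0.03 after centring each library on its median.

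Without HF week 5 library 1, 5 members remained called lower (*Pdss1*, *Pdss2*, *Coq2*, *Coq5* and *Coq9*), and the median of the members was -0.47. Of all genes 1355 (10.7%) were then called in either direction, against 1482 higher and 1580 lower with that library. Markers of other cells moved with these falls. All 4 atrial cardiomyocyte markers were called higher in HF week 5, as were 5 of 7 fibroblast markers (sum 333 to 663 FPKM, against 234 to 340 in control), 3 of 6 endothelial markers (174 to 236, against 150 to 175) and 3 of 4 tested adipocyte markers (38.0 to 280, against 32.9 to 40.2). In HF library 3 *Nppa* read 2210 FPKM, with *Myl7* at 6.16, *Myl4* at 8.05 and *Sln* at 1.28, so the atrial sum there follows *Nppa*. The endothelial markers not called were *Kdr* (log2 fold change -0.33), *Flt1* (-0.21) and *Cdh5* (-0.03). None of 6 leukocyte markers was called (113 to 191 FPKM, against 84.5 to 160). Of the 10 cardiomyocyte markers 2 were called lower, and their sum was 20300, 29300 and 25200 FPKM in HF libraries 1 to 3 and 25800 to 30600 in control, with *Myh6* listed at 0 in both groups. *Ucp1*, a defining gene of brown fat in the adipocyte list, was listed at 0 in all 5 controls. Without HF library 1, 4 of 4 atrial, 1 of 7 fibroblast, 2 of 6 endothelial and 2 of 4 adipocyte markers were called higher and 1 cardiomyocyte marker lower, and without HF library 3 the fibroblast count was 3 and the endothelial markers were 2 higher and 1, *Kdr*, lower. The part of these cells in the falls was not tested.

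**Figure D2:**
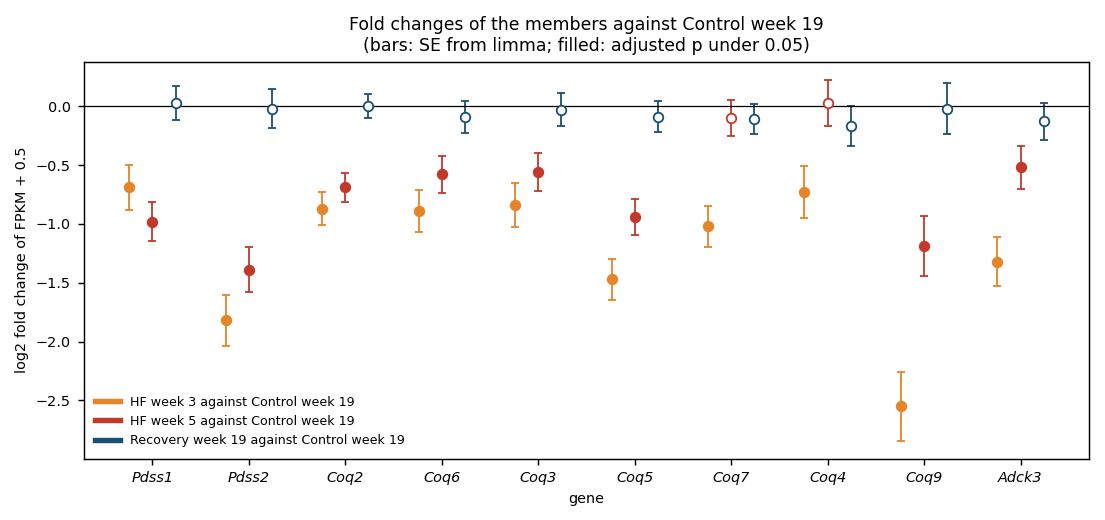
Log2 fold change of FPKM + 0.5 against Control week 19 (vertical axis) for each member (horizontal axis) in HF week 3, HF week 5 and Recovery week 19; bars are the SE from limma and filled points passed an adjusted p of 0.05. The 10 Recovery week 19 points are open and lie between -0.17 and 0.03, while the HF week 5 points reach -1.39.

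HF week 3, in the middle of the protocol, had 2 libraries. Against Control week 19 all 10 members were called lower, where 27.6% of all genes were, and 9 of them had both HF libraries under every control, where 23.9% of all genes did. The exception was *Coq4*. The log2 fold changes were -2.55 for *Coq9*, -1.82 for *Pdss2*, -1.47 for *Coq5*, -1.32 for *Adck3* and -1.02 for *Coq7*. The other 5 lay from -0.89 (*Coq6*) to -0.69 (*Pdss1*). *Coq9* read 34.2 and 91.3 FPKM, far apart from each other and both far under the lowest control. *Coq7* read 71.9 and 116 FPKM, both under the lowest control. *Coq4* read 3.68 and 8.81, and without HF week 3 library 1 its log2 fold change was -0.15 with an adjusted p of 0.623. With totals taken without the 10 highest genes, all 10 members were again called lower.

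Markers of other cells moved with these falls too. Of 7 fibroblast markers 5 were called higher in HF week 3, with *Postn*, a matrix protein, at a log2 fold change of 3.14, *Col3a1* at 2.48, *Col1a1* at 1.96, *Lum* at 1.37 and *Pdgfra* at 1.09, and their sum was 609 and 660 FPKM against 234 to 340 in control. Of 6 endothelial markers 3 were higher, with *Emcn* at 1.66, and 1 was lower (199 and 282 FPKM, against 150 to 175). Of 4 tested adipocyte markers 3 were higher (258 and 124 FPKM, against 32.9 to 40.2), and none of 6 leukocyte markers was higher (177 and 161 FPKM, against 84.5 to 160). *Cd68* was called lower, but is listed at 0 in library 1 and at 6.4 FPKM in library 2, inside the control range of 4.26 to 8.5. Of the 4 atrial markers 3 were higher. *Nppa* is listed at 0 in both HF week 3 libraries, so no direction is given for it, and without it the sum was 7740 and 14100 FPKM against 4.83 to 8.52 in control. *Myh6* read 37500 and 302000 FPKM in HF week 3 where the controls are listed at 0, and of the other 9 cardiomyocyte markers 5 were lower, with a sum of 18600 and 18500 FPKM against 25800 to 30600. The part of these cells in the falls was not tested.

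The step from HF week 3 to HF week 5 was added after the values had been seen. *Coq9* (1.36, adjusted p = 0.0102), *Coq7* (0.93, adjusted p = 0.00482), *Adck3* (0.8, adjusted p = 0.0236) and *Coq4* (0.76, adjusted p = 0.0346) rose, in log2 fold change, where 13.1% of all genes were called higher. Of the 10 members 1, *Coq7*, had its 3 HF week 5 libraries all above both HF week 3 libraries, where 16% of all genes did. The other 6 members were not called, and their log2 fold changes lay from -0.29 (*Pdss1*) to 0.53 (*Coq5*). The count fell without Recovery weeks 7 to 13 in the fit, and no member was called with only the compared groups in it. The count also rested on single libraries. It was 0 without HF week 3 library 1, where the log2 fold changes were 0.66 for *Coq9*, 0.58 for *Coq7*, 0.72 for *Adck3* and 0.18 for *Coq4* (adjusted p of 0.202 to 0.866). It was 5 without HF week 3 library 2, 7 without HF week 5 library 1, and 2 without either of the others.

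Markers moved with this step as well. Of 7 fibroblast markers *Col3a1* (log2 fold change -1.84), *Col1a1* (-1.58) and *Postn* (-1.33) were called lower in HF week 5 and none higher (sum 333 to 663 FPKM, against 609 and 660 in HF week 3). Of the 9 cardiomyocyte markers other than *Myh6*, *Atp2a2* (1.31), *Pln* (1.03), *Ryr2* (0.86) and *Tnnt2* (0.57) were called higher and none lower (20300 to 29300 FPKM, against 18600 and 18500). No endothelial, leukocyte or tested adipocyte marker was called, nor an atrial marker other than *Nppa*, which is listed at 0 in HF week 3; at an unadjusted p under 0.05 in limma there were 1 of 6 endothelial, 2 of 6 leukocyte, 1 of 4 adipocyte and 2 of the 3 other atrial markers. The part of these cells in the step was not tested.

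**Figure D3:**
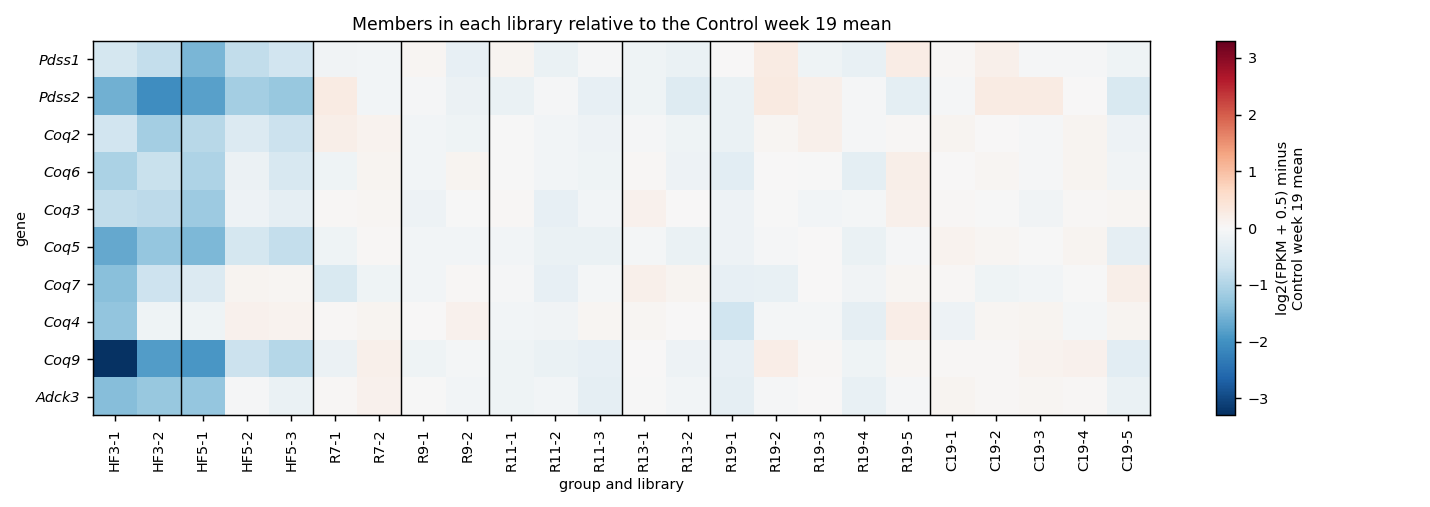
Log2(FPKM + 0.5) of each member (rows) in each of the 24 libraries (columns, group and library number) minus the Control week 19 mean of that gene; blue is lower and red is higher than control on one scale. HF week 3 library 1 is darkest for *Coq9* (-3.25), and the median over the members is -1.25 in HF week 5 library 1, -0.31 in library 2 and -0.57 in library 3.

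The second comparison asks what became of these genes after treatment ended. Recovery week 19 was set against HF week 5, and since this shares the HF libraries with the first comparison, the values are given side by side and not as separate support. In Recovery week 19, 7 of 10 members rose and none fell, where 12.3% of all genes were called higher. The median log2 fold change was 0.61, against -0.04 over all genes. Every recovery library was above every HF library for *Pdss1*, *Pdss2*, *Coq2*, *Coq5* and *Coq9*, and 14.1% of all genes were separated in this way.

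The tail synthase genes rose by the most together with *Coq9*. *Pdss2* read 6.04, 8.8, 8.05, 6.94 and 5.61 FPKM in Recovery week 19 libraries 1 to 5, 1.37 above HF week 5 on the log2 scale (SE 0.191, adjusted p = 0.000125). *Pdss1* read 5.38, 6.55, 4.85, 4.44 and 6.38 FPKM, 1.01 higher (SE 0.166, adjusted p = 0.000418). *Coq9* read 276, 381, 341, 297 and 343 FPKM, 1.17 higher (SE 0.253, adjusted p = 0.00302). All recovery values of these 3 genes were above the highest HF value. *Coq5* read 52.5, 57.8, 58.8, 50.0 and 57.4 FPKM and rose by 0.85 on the log2 scale (SE 0.152, adjusted p = 0.000753). *Coq2* read 67.7, 82.1, 89.4, 76.1 and 80.7 FPKM and rose by 0.69 (SE 0.12, adjusted p = 0.000628). These 5 genes were also called without HF week 5 library 1.

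*Coq3* (14.4 to 18.5 FPKM in recovery) and *Coq6* (35.5 to 52.7) rose by 0.53 (adjusted p = 0.0222) and 0.49 (adjusted p = 0.0263), with groups that overlapped, and neither was called without HF library 1 (adjusted p of 0.227 and 0.246). *Coq6* was also not called without HF library 3 or without recovery library 2, 3 or 5 (adjusted p of 0.0507 to 0.0559). *Adck3* (129 to 159 FPKM) had a log2 fold change of 0.39 (95% confidence interval 0.01 to 0.77, adjusted p = 0.13), and was called only without HF library 2 (0.63, adjusted p = 0.0215) among the libraries left out. *Coq7* (155 to 195 FPKM) and *Coq4* (6.02 to 11.6) had log2 fold changes of -0.02 (95% confidence interval -0.33 to 0.29) and -0.20 (-0.61 to 0.2), with that of *Coq7* at 0.04 after median centring.

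Marker genes of other cells moved with this rise in the direction opposite to that of the HF week 5 comparison, with which it shares the HF libraries. All 4 atrial markers were called lower in Recovery week 19 (sum 173 to 752 FPKM, against 2230 to 81700 in HF week 5). Without *Nppa* the sum was 3.04 to 5.91 FPKM in Recovery week 19, against 15.5 to 39700 in HF week 5. Of 7 fibroblast markers 3 were lower (289 to 429 FPKM, against 333 to 663), namely *Postn* with a log2 fold change of -1.89, *Lum* with -0.82 and *Col3a1* with -0.71. Of 6 endothelial markers *Emcn* (-1.14) and *Tek* (-0.71) were lower (158 to 174 FPKM, against 174 to 236). The endothelial markers not called were *Kdr* (0.48), *Flt1* (0.46), *Cdh5* (0.02) and *Pecam1* (-0.31). Of 4 tested adipocyte markers 3 were lower (31.9 to 49.5 FPKM, against 38.0 to 280), with *Ucp1* listed at 0 in all 5 recovery libraries. None of 6 leukocyte markers was called (129 to 289 FPKM, against 113 to 191), but 1 was called higher in 8 of 19 other settings. *Cd68*, a macrophage marker, read 9.97 to 22.6 FPKM in recovery and 3.89 to 8.44 in HF, without overlap, with a log2 fold change of 1.46 (adjusted p = 0.0566). The other leukocyte markers had log2 fold changes from -0.22 (*Ptprc*) to 0.40 (*Emr1*). Of 10 cardiomyocyte markers 2, *Atp2a2* and *Pln*, were higher (21200 to 29800 FPKM, against 20300 to 29300). Without HF library 1, 4 of 4 atrial, 1 of 7 fibroblast, 2 of 6 endothelial and 2 of 4 adipocyte markers were lower, and 1 fibroblast and 1 cardiomyocyte marker higher. Without HF library 3, 2 endothelial markers were lower and 2 higher. The part of these cells in the rise was not tested.

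Against Control week 19, no member was called in Recovery week 19, at an adjusted p or at an unadjusted p under 0.05, in limma, the one tool run. Of all genes 0.0235% were called, which is 3 genes. Group means were 90% (*Coq4*) to 103% (*Pdss1*) of control, and all 10 pairs of groups overlapped. The intervals show what differences this comparison could miss. They were tightest for *Coq2* (log2 fold change 0.00, 95% confidence interval -0.22 to 0.22) and widest for *Coq9* (-0.02, -0.48 to 0.44). For *Pdss2* the interval of -0.36 to 0.33 and for *Coq9* that just given both leave out the HF week 5 difference of the same gene.

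Between these points 4 Recovery times were sampled. At week 7, 2 weeks after treatment, 6 members were higher than in HF week 5 (*Pdss1*, *Pdss2*, *Coq2*, *Coq3*, *Coq5* and *Coq9*), where 8.05% of all genes were. At week 9 it was *Pdss1*, *Pdss2*, *Coq2*, *Coq5* and *Coq9* (5 of 10, all genes 4.08%), at week 11 these 5 genes again (all genes 5.5%), and at week 13 these 5 and *Coq3* (6 of 10, all genes 5.09%). *Pdss2* read 8.63 and 6.66 FPKM in the week 7 libraries, 6.85 and 6.12 in those of week 9, 5.95, 6.94 and 5.81 in those of week 11 and 6.31 and 5.12 in those of week 13. *Coq9* read 290 and 375 FPKM in week 7, 302 and 314 in week 9, 297, 281 and 276 in week 11 and 336 and 296 in week 13. Both genes were thus above their highest HF week 5 value in every library from week 7 on. Marker genes of other cells moved at these weeks too, against the same HF libraries. At weeks 7, 9, 11 and 13 in that order 4, 3, 4 and 4 of the 4 atrial markers were called lower, 3, 2, 3 and 3 of the 4 tested adipocyte markers, 3, 1, 0 and 1 of the 7 fibroblast markers and 3, 1, 2 and 1 of the 6 endothelial markers. *Tek* was called at all 4 times, with log2 fold changes of -0.90, -0.83, -0.87 and -0.63. *Kdr* (0.22, -0.14, 0.04 and -0.04), *Flt1* (0.22, 0.07, 0.02 and -0.36) and *Cdh5* (-0.03, -0.24, -0.24 and -0.24) were called at none of them. No leukocyte marker was called, but *Cd68* read 13.7 to 22.8 FPKM at week 11 and 21.5 and 25.1 at week 13, all above HF week 5. The log2 fold changes of the leukocyte markers ran from -0.40 (*Ptprc*) to 1.74 (*Cd68*) at week 11. At week 13 they ran from -0.23 (*Ptprc*) to 2.00 (*Cd68*). At week 7 *Lyz2* (-0.86) and *Ptprc* (-0.77) lay under every HF week 5 library. The part of these cells in the rise was not tested. Against Control week 19 no member was called at week 7, 9, 11 or 13, at an adjusted or unadjusted p under 0.05 in limma, where 0.047%, 0.0549%, 0.149% and 0.0784% of all genes were called. At week 7 the libraries of 2 members did not overlap with control, as for 15.6% of all genes, and they lay on opposite sides. *Coq7* (133 and 170 FPKM) was under every control, with a log2 fold change of -0.32 (95% confidence interval -0.68 to 0.04), and *Coq2* (90.4 and 85.9 FPKM) was above every control, with 0.16 (-0.13 to 0.45). These weeks differ from weeks 5 and 19 in the share of FPKM held by the highest genes. With totals taken without the 10 highest genes, 179, 234 and 102 of 12802 genes tested were called higher than in HF week 5 at weeks 9, 11 and 13. In the main fit 520, 702 and 649 of 12759 were. The member counts with those totals were 3, 3 and 0. They were nearly all lost with only the groups compared in the fit, as given in the section on processing. They also moved with single libraries. Without HF week 5 library 1 they were 4 at week 7, 2 at week 9, 3 at week 11 and 2 at week 13. With either library of a recovery group of 2 left out they were 3 or 2 at week 7, 0 at week 9 and 0 at week 13, the lone library then being taken to vary like the other groups.

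Within a library, the ratio of partner genes does not depend on how libraries are scaled. These pairs were chosen after their values were seen and carry no test. *Coq9* per *Coq7* was 1.23 to 2.02 in control libraries, 0.634 to 1.02 in HF week 5, 0.476 and 0.784 in HF week 3, and 1.73 to 2.42 in Recovery week 19. The HF libraries had the lower ratio in each case, and no HF value reached a control value. *Pdss2* per *Pdss1*, the subunits of one enzyme, was 1.02 to 1.68 in control, 0.814 to 1.08 in HF week 5 and 0.464 and 0.596 in HF week 3, so that week 5 overlapped control and week 3 did not.

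**Figure D4:**
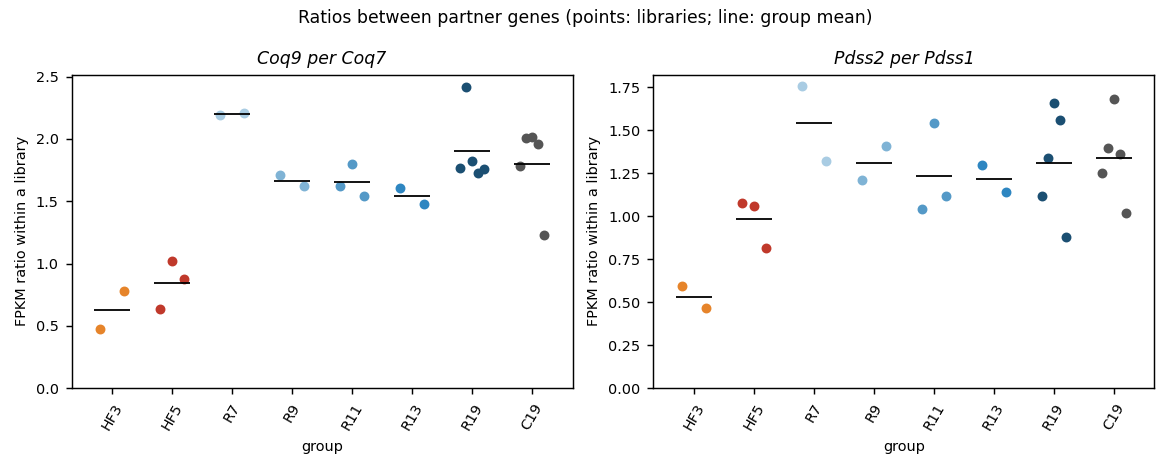
FPKM ratio within each library (vertical axis, from 0) for *Coq9* per *Coq7* and *Pdss2* per *Pdss1*, by group (HF3, HF5, R7 to R19, C19 as in the plot of FPKM by library); points are libraries and lines group means. The 5 HF points of *Coq9* per *Coq7* lie at or under 1.02, and all other libraries at or above 1.23.

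The genes whose group means ran most like the mean of the members were found by Pearson r over the 8 groups among 6753 genes that averaged 5 FPKM or more; the groups share libraries with the members, so r is a description. They were *Pnck* (r = 0.9994), *Nkain1* (0.9993), *Ogdh* (0.9982), *Sdha* (0.9978) and *Grb14* (0.9978). *Ogdh*, a subunit of the oxoglutarate dehydrogenase of the citrate cycle, averaged 238 FPKM in control, 126 in HF week 5, 71.2 in HF week 3 and 227 in Recovery week 19. *Sdha*, the catalytic subunit of complex II, which reduces coenzyme Q, averaged 423, 195, 110 and 412 FPKM in the same order.

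Genes around the pathway were read from lists. Of 6 other coenzyme Q genes, 4 fell in HF week 5 and none rose, with a median log2 fold change of -0.61. *Pptc7*, a mitochondrial phosphatase, read 1.87, 2.94 and 3.29 FPKM in HF and 6.31 to 15.3 in control, a log2 fold change of -1.92 (adjusted p = 8.36e-05). *Coq10b*, a coenzyme Q binding protein, read 13.1, 13.4 and 15.4 FPKM in HF and 26.1 to 38.5 in control, a log2 fold change of -1.13 (adjusted p = 0.000191), whereas its paralog *Coq10a* had -0.33 (adjusted p = 0.2). *Stard7*, a lipid transfer protein, also fell (-0.63, adjusted p = 0.00091). These 3 genes were also called without HF library 1, and the count was then 3 of 6. *Adck4*, the paralog of *Adck3*, read 8.58, 11 and 7.83 FPKM in HF week 5 and 5.73 to 8.72 in control, with a log2 fold change of 0.33 (adjusted p = 0.169). In HF week 3 it read 18.4 and 13.5 FPKM and was higher than control by 1.10 on the log2 scale (adjusted p = 0.000169), in the same libraries in which *Adck3* was lower. *Adck3* per *Adck4* was 19.4 to 23.9 in control libraries, 3.26 and 4.97 in HF week 3 and 7.59 to 17.5 in HF week 5. It also lay under the control range in Recovery weeks 9 (16.8 and 17.1), 11 (16.4 to 19.3) and 13 (18.0 and 19.1), and overlapped it in Recovery weeks 7 (24 and 17) and 19 (15.9 to 23.6).

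Of 9 tested mevalonate and isoprenoid enzymes 1 was higher and none lower in HF week 5, with a median of 0.06. That count was 0 in 14 of 19 other settings. *Hmgcs1* was listed at 0 in all 24 libraries and was not tested. Of 11 tested reductases, the enzymes that pass electrons to coenzyme Q, 6 were lower and none higher (median -0.53), and the other 5 did not pass, with log2 fold changes from -0.24 to 0.38. The smallest p-values were those of *Sdha* (-1.14, adjusted p = 2.07e-05), *Sdhd* (-0.92, adjusted p = 0.000185), *Etfdh* of fatty acid oxidation (-1.45, adjusted p = 0.00032) and *Sqrdl* of sulfide oxidation (-0.53, adjusted p = 0.000926). *Chdh* was under the minimum and was not tested. Without HF library 1, 5 of 11 were lower. Of 9 complex III subunits 2 were lower and none higher (median -0.27), *Uqcrc2* (-0.72, adjusted p = 0.0019) and *Uqcrfs1* (-0.51, adjusted p = 0.0152). Without HF library 1 only *Uqcrc2* was called and the median was 0.00, whereas the count was 6 with quantile normalization and 5 with totals taken without the 10 highest genes.

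Of 11 citrate cycle enzymes 8 were lower and none higher in HF week 5 (median -0.75), with *Idh3b* at -1.07 (adjusted p = 0.000383), and 5 were lower without HF library 1. Of 8 regulators of mitochondrial genes 6 were lower and none higher (median -0.68). *Ppara*, a nuclear receptor for fatty acids, fell by 1.48 on the log2 scale (adjusted p = 7.76e-05), *Esrra*, an estrogen-related receptor, by 0.71 (adjusted p = 0.00145) and *Esrrg*, its relative, by 0.74 (adjusted p = 0.00158). These 3 were also called without HF library 1, where the count was 4 of 8. In Recovery week 19 against HF week 5, genes called higher were 4 of 6 other coenzyme Q genes, 6 of 11 reductases (with 1 lower), 2 of 9 complex III subunits, 8 of 11 citrate cycle enzymes, 6 of 8 regulators and 0 of 9 mevalonate enzymes. At an unadjusted p under 0.05 in limma, 1 of the 9 mevalonate enzymes was called, as it was at an adjusted p without HF library 2. Without HF library 1 the counts were 3 for the other coenzyme Q genes, 5 for the reductases (with 0 lower), 4 for the citrate cycle, 3 for the regulators and 1 for complex III, the last also without recovery library 2 or 3.

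**Figure D5:**
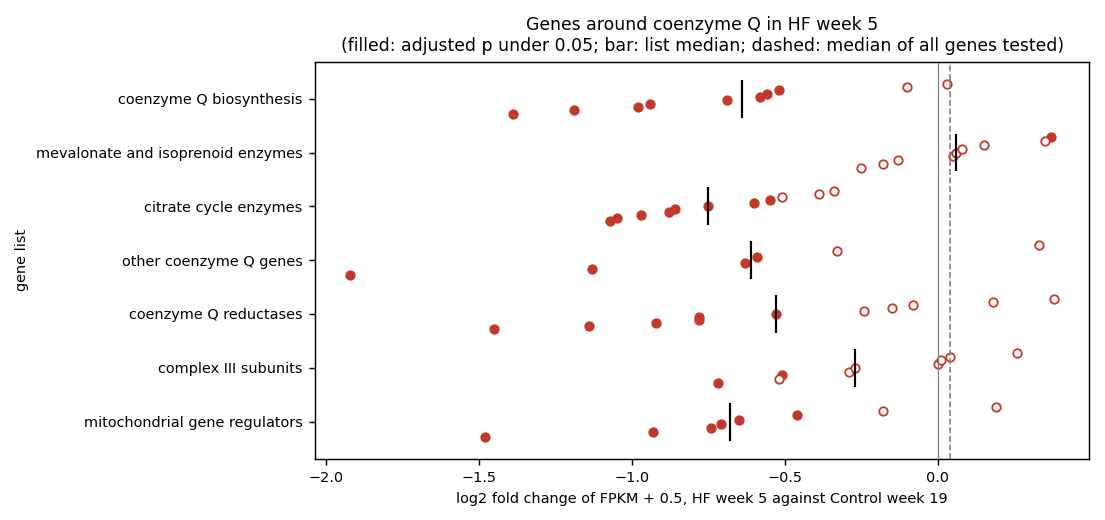
Log2 fold change of FPKM + 0.5 in HF week 5 against Control week 19 (horizontal axis) for every tested gene of 7 lists (rows); filled points passed an adjusted p of 0.05, bars are list medians and the dashed line is the median of all genes tested (0.04). The median of the 10 biosynthesis genes is -0.64 and that of the mevalonate and isoprenoid enzymes 0.06.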

How the data were processed

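RNA from mouse ventricles was sequenced as paired-end poly(A) libraries. Per the methods and the submitters' processing notes, the authors used TopHat for alignment to MGSCv37 (mm9), computed FPKM per gene with Cuffdiff and deposited a table with FPKM in a column for each library it holds. Read counts were not used here, so the absolute depth behind a value is not known and no counting interval is given.

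Columns carry numbers where the samples carry letters, so a column was matched to its group and not to a sample. Of 29 columns 24 were used. The other 5 are named for week 5 controls, of which 4 are labelled, and were left out. HF week 5 was therefore not compared with controls of the same week. Recovery week 9 has 2 columns for 3 labelled samples.

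Values were taken as log2(FPKM + 0.5), since 0.5 FPKM was also the minimum mean for a gene to be tested. A fold change on this scale understates that of low genes. Group means of 8 groups (16 residual degrees of freedom) were fitted to 12759 genes in a single model with limma 3.58.1 in R 4.3.3 (eBayes with a trend), and p-values were two-sided and adjusted by Benjamini-Hochberg over all genes. The script was tested on simulated data. Tables and plots used Python 3.11.15, pandas 2.3.3, numpy 2.4.6 and matplotlib 3.10.9.

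The members and gene lists were chosen with earlier results of these data known. The text names all members and, from each other list, at most the 4 genes of smallest p in HF week 5 against Control week 19, besides *Adck4*, *Coq10a*, *Coq10b*, marker genes, genes listed at 0 or under the minimum, and the 5 genes of most similar pattern. The results of 2 genes are not reported here. Alternatives were the pseudocount (0.1 and 1), the filter, median centring, quantile normalization, the libraries in the fit and leaving out each library. The HF week 5 against HF week 3 comparison, fits without Recovery weeks 7 to 13 and totals without the 10 highest genes were added after seeing the data.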

Additional observations from a re-analysis of the deposited data

Results flagged for a closer look

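Control week 19 library 5 was the lowest of its group for *Coq9*, at 261 FPKM, and for *Adck3*, at 135 FPKM, with a gap to the next library large against the range of the group. These were 2 of 20 groups of 5 libraries examined, and chance gives about 1 in 20. Without that library the HF week 5 comparison still called 8 of 10 members.

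The effect against control differed between HF week 3 and HF week 5 for 4 members, by the test of the difference itself in limma. Of all 12759 genes tested, 1675 were called higher and 1057 lower in this comparison. The log2 fold change from week 3 to week 5 was 1.36 for *Coq9*, 0.93 for *Coq7*, 0.8 for *Adck3* and 0.76 for *Coq4*. Without HF week 3 library 1 these were 0.66, 0.58, 0.72 and 0.18 in the same order. Of 7 fibroblast markers 3 were called lower in the same comparison, *Col3a1* (-1.84), *Col1a1* (-1.58) and *Postn* (-1.33). The cardiomyocyte markers *Atp2a2*, *Pln*, *Ryr2* and *Tnnt2* were called higher. The part of these cells was not tested. None of the 4 members was called without HF week 3 library 1, which had the fewest genes above 0 of all 24 libraries, at 12816.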

How the results depend on the processing

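No paired analysis was possible because the columns carry no letter that would link a library to a labelled sample, so the planned replicate block was not run. Where a group of 2 loses a library, the lone library is assumed to vary like the other groups.

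The 8 members called in HF week 5 against Control week 19 came to 5 without HF week 5 library 1 and to 6 to 8 under the settings that keep all libraries of both groups; over single libraries left out the range was 5 to 8. *Adck3* lost its call in 9 of 19 settings and *Coq3* in 3. The 7 members of Recovery week 19 against HF week 5 were 5 to 8, the 10 of HF week 3 against control 9 or 10, and the count of Recovery week 19 against control stayed at 0. Signs turned only for fold changes near 0 that were not called. *Coq4* in HF week 5 against control was -0.03 with median centring and -0.09 with totals without the 10 highest genes (-0.02 to 0.13 with single libraries left out), and *Coq7* there was -0.19 to 0.08 with single libraries left out. *Coq7* in Recovery week 19 against HF week 5 was 0.04 and 0.11 with the same scalings and -0.19 to 0.07. In Recovery week 19 against control *Coq2* was -0.00 with both scalings and -0.04 to 0.06, *Coq9* was 0.01 with quantile normalization and -0.11 to 0.04, *Pdss1* was -0.03 to 0.1, *Pdss2* -0.14 to 0.06 and *Coq3* -0.08 to 0.01.

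The counts of Recovery weeks 7 to 13 against HF week 5 and of HF week 5 against HF week 3 moved more than these, while those of Recovery weeks 7 to 13 against control were 0 in every setting run. With only the groups compared, week 7 against HF week 5 gave 1 member, week 9 gave 0, week 11 gave 1, week 13 gave 0 and HF week 5 against HF week 3 gave 0, with fewer libraries to estimate the spread. Quantile normalization gave 3 at week 9 and 3 at week 13, and totals without the 10 highest genes gave 3 at week 9, 3 at week 11 and 0 at week 13. Over all genes, quantile normalization called 649 and 647 higher at weeks 9 and 13. Those totals called 179, 234 and 102 higher at weeks 9, 11 and 13. Leaving out single libraries gave 2 to 8 at week 7, 0 to 7 at week 9, 3 to 7 at week 11 and 0 to 7 at week 13. HF week 5 against HF week 3 gave 2 without Recovery weeks 7 to 13 and 0 to 7 with single libraries left out, where *Coq2* was -0.06 to 0.42; the cause of these changes was not tested.

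Totals without the 10 highest genes moved the median of all genes in HF week 5 against control from 0.04 to -0.07, in Recovery week 7 against HF week 5 from -0.05 to 0.15 and in Recovery week 13 against HF week 5 from -0.02 to -0.17. The share of called genes that were higher in HF week 5 against control was 48.4%, and 37.4% with median centring and 30.3% with those totals; in Recovery week 19 against HF week 5 it was 50.7%, and 69.7% with those totals. The fragment counts behind the low members *Pdss1* and *Pdss2* are not known, so their counting error is seen only in the spread between libraries.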
